A study of Mus musculus with 6 samples.

Results

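The genes described here carry names of nuclear-encoded protein subunits of the 5 oxidative phosphorylation complexes of mitochondria. They were chosen by gene symbol alone: names made of Nduf, one of the letters a, b, c, s or v and then a digit, the 4 Sdh genes, Uqcr genes, Cyc1, the Cox4 to Cox8 subunit genes and Atp5 genes. The rule found 85 of the 17189 genes in the deposited tables: 39 of complex I, 4 of complex II, 9 of complex III, 16 of complex IV and 17 of complex V. Ndufa4 and Ndufa4l2 carry complex I names and were placed with complex IV, where the NDUFA4 protein is now assigned. Of the 85, 81 are listed under the KEGG oxidative phosphorylation pathway in the deposited annotation. The names do not take in every subunit, since Ndufab1 is listed under that pathway and was not a member. Genes encoded by mitochondrial DNA, and Cox6a2, Cox7b2 and Cox8b, were not analysed here.

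RNA was sequenced from cells of the ureteric bud lineage, the branching epithelium that forms the collecting ducts, sorted by fluorescence from mouse embryos at E16.5. Control embryos were Hoxb7Cre-GFP+ with 1 floxed copy of Ash2l (Ash2l F/+), and conditional knockout (cKO) embryos were Hoxb7Cre-GFP+ with both copies floxed (Ash2l F/F), 3 libraries each. Both groups thus carried the Hoxb7-driven Cre-GFP transgene, which is active in the ureteric lineage, and at least 1 floxed allele; neither was treated. The labels name the cells intermediate mesoderm epithelial cells, and leave unsaid if each replicate came from a single embryo or from pooled ones. The titles call the 3 libraries of each group biological replicates. P-values therefore measure the spread between these libraries, which may differ from that between single embryos. ASH2L belongs to the enzyme complexes that place methyl groups on histone H3 lysine 4 at promoters, and the series asks what its loss does to the branching epithelium.

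Complex I takes electrons from NADH and complex II takes them from succinate. Complex III passes them from ubiquinone to cytochrome c, complex IV passes them on to oxygen, and complex V, the ATP synthase, uses the proton gradient built by complexes I, III and IV to make ATP. Most subunits are encoded in the nucleus and made in the cytosol, while a core set is encoded by mitochondrial DNA, and several complex IV subunits exist as tissue-restricted isoforms of a common form. Collecting duct cells, which the ureteric epithelium forms, carry out ATP-driven ion transport.

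Ash2l (Entrez Gene 23808) had 1933, 1853 and 1624 counts in the controls and 451, 292 and 214 counts in cKO, so the groups did not overlap. On the log2 scale the change was -2.43 with an SE of 0.284 (edgeR adjusted p = 0.00786). Library totals were 9620235 to 10538314 counts. One library stood apart. The third cKO replicate listed 1453 genes at 0 among the 11738 that exceeded 10 counts in all 5 other libraries (12.4%), so results are also given without that library, called cKO replicate 3. None of the 83 members that exceeded 10 counts in those 5 libraries was listed at 0 there. Reads of the Y-linked genes Ddx3y, Uty and Kdm5d were present in every control library and listed at 0 in every cKO library, where a count of 0 allows up to 3. The sex of the embryos therefore cannot be told apart from the genotype in any comparison here; 3 members, Ndufa1, Cox7b and Ndufb11, lie on the X chromosome. Ureteric epithelium markers summed to 12130 to 13670 CPM (a count corrected for library size) in controls and 7268 to 8134 CPM in cKO. Of these 18 markers, 6 fell and 0 rose. Among all genes tested, 3.59% fell and 3.52% rose, which is the background for each list below. Muscle markers summed to 18.1 to 27.0 CPM in controls and 294 to 503.9 CPM in cKO, and Myh3 and Myog were at 0 in controls. Only 8 of the 16 muscle markers were tested, and 5 of these rose. Nephron and podocyte markers summed to 19.6 to 30.8 and 75.5 to 98.7 CPM (1 of 5 tested rose; Nphs1 at 0 in controls). Intercalated cell markers summed to 493.3 to 626.5 and 299.9 to 354.3 CPM, and Slc4a1, Aqp6, Insrr and Hmx2 were at 0 in cKO. Of 8 intercalated cell markers tested, 2 fell, while all 8 were below 0, with a median log2 fold change of -3.81. Stroma (13.6 to 32.7 and 2.79 to 30.9 CPM) and immune markers (45.1 to 91.0 and 59.6 to 121.5 CPM) overlapped between groups. So did erythroid markers (2.09 to 404 and 0 to 36.5 CPM). The sums of endothelial markers did not overlap (59.9 to 71.7 and 29.7 to 47.8 CPM), but these genes went both ways. Of 4 endothelial markers tested, 1 fell and 0 rose, with 3 below 0 and 1 above, and Flt1 was at 0 in controls. The part of these lists in the results below was not tested. In such bulk samples, fewer cells of a type and less RNA per cell cannot be told apart.

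Transcripts of the respiratory chain were abundant in both groups, and few of them passed the test for a change. A gene that did not pass is not shown to be unchanged. Of 84 members tested, 3 rose in cKO (Cyc1, Cox6a1 and Cox6b2), 1 fell (Atp5j) and 80 did not pass the test at an adjusted p under 0.05. Over all 13047 genes tested, 3.52% were called higher and 3.59% lower, so the members' shares of 3.57% and 1.19% were near and below that background. The untested member, Ndufa4l2, had 0, 3 and 5 counts in controls and 1, 0 and 0 counts in cKO. The median log2 fold change of the members was 0.13, beside -0.04 over all genes. Above 0 were 57 of 84 members, beside 6219 of all 13047 genes. For 74 members the 95% interval of the change lay inside 2-fold in either direction, and for 46 it lay inside 1.5-fold. The members whose interval reached past 2-fold were Atp5g2, Atp5j, Cox4i2, Cox6a1, Cox6b2, Cox7a1, Ndufa1, Ndufb4b, Ndufb4c and Ndufs6b. At an unadjusted p under 0.05 there were 19 members (22.6%), where 23.1% of all genes tested were.

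**Figure D1:**
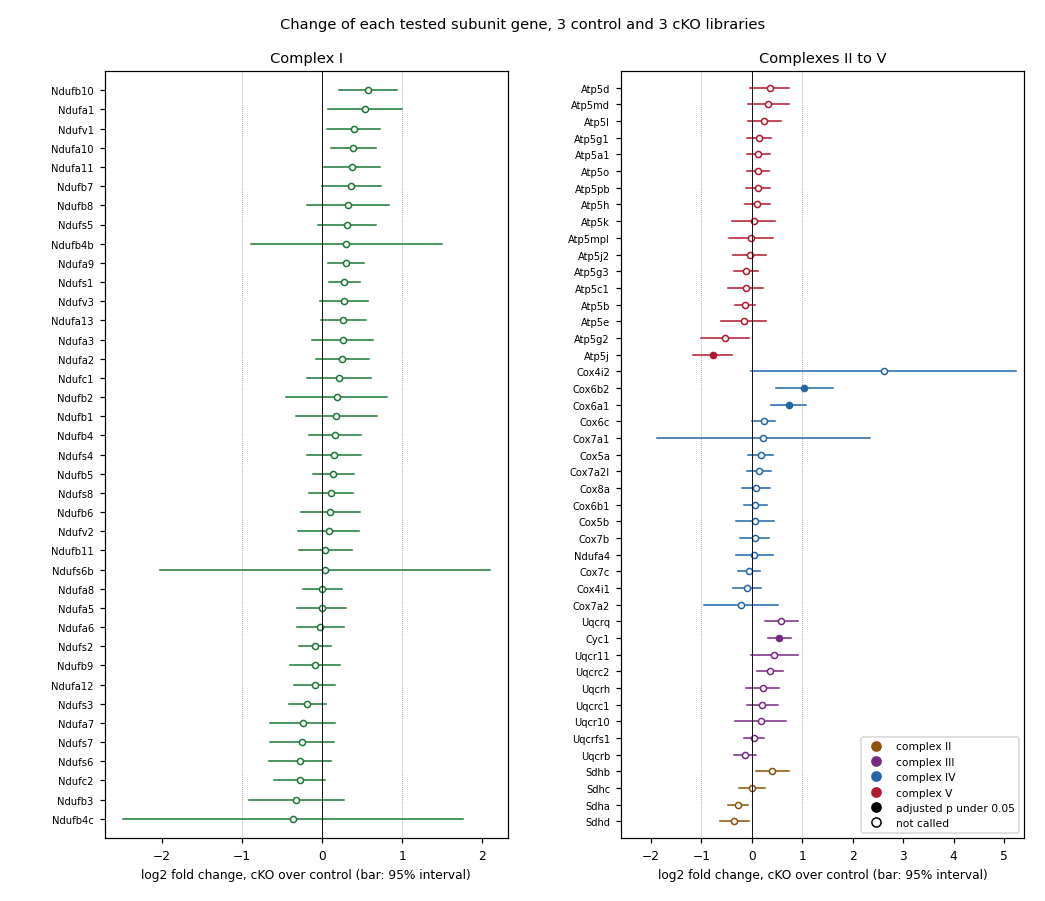
Log2 fold change of each tested subunit gene in cKO over control with its 95% interval (edgeR, 3 libraries a group), ordered by size within each complex; filled points passed an adjusted p under 0.05 and dotted lines mark 2-fold. Most intervals span 0 and lie inside 2-fold; Cyc1, Cox6a1 and Cox6b2 are filled to the right and Atp5j to the left.

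The count of rising members moved with the libraries used. Without cKO replicate 3, 16 of 84 members rose and 1 fell, while 13.7% of the 13660 genes then tested were called higher and 14.9% lower. The shares of members were 19.0% and 1.19%. The median was again 0.13, beside 0.01 over all genes, so that more calls were made at much the same median. All 4 members called with 6 libraries were also called then, with the same sign. Leaving out any other single library left 0 or 1 rising member and 0 falling members. In those fits only 0.456 to 1.44% of all genes were called higher and 0.434 to 1.89% lower.

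Without regard to a test, 19 members (22.6%) had every cKO library above every control library in CPM, where 16.7% of all genes did. Another 7 members (8.33%) had every cKO library below, where 20.7% of all genes did.

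Levels spanned a wide range. Atp5b, the catalytic beta subunit of the ATP synthase head, was the highest in both groups, at a mean of 1191 FPKM in controls and 1115 FPKM in cKO (FPKM is a level scaled to gene length and library size). The order of the next genes differed between the groups. In controls Atp5a1 (639.0 FPKM) was followed by Cox6b1 (517.7 FPKM) and Cox6a1 (508.0 FPKM), which overlapped with each other. In cKO Cox6a1 (870.4 FPKM) was followed by Atp5a1 (720.4 FPKM) and Uqcr11 (558.8 FPKM), and the ranges of neighbours in that order overlapped. The median member had 179.2 FPKM over the 6 libraries. Under 20 FPKM were 6 members: the isoforms Cox4i2, Cox7a1 and Ndufa4l2, and Ndufb4b, Ndufb4c and Ndufs6b, copies that closely resemble Ndufb4 and Ndufs6, so that reads may have been split between them. The members together held 4.22% ± 0.291 of the FPKM of a control library and 4.58% ± 0.283 of a cKO library (SD, n = 3 each), and the ranges of 3.88 to 4.39% and 4.39 to 4.91% met at their ends.

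Complex III held a larger part, and complex V a smaller part, of the subunit FPKM in cKO. Complex III made up 13.4, 13.5 and 13.2% of the summed subunit FPKM in controls and 15.4, 14.7 and 13.7% in cKO. Complex V made up 28.9, 29.8 and 29.9% in controls and 26.8, 27.0 and 28.4% in cKO. For both complexes the groups did not overlap, and cKO replicate 3 was the cKO library nearest to the controls. The shares of complex I (29.9 to 31.4% and 30.5 to 31.1%), complex II (5.01 to 5.52% and 4.59 to 5.21%) and complex IV (20.8 to 21.9% and 21.7 to 22.9%) overlapped. The summed FPKM of complex V itself did not fall, at 4901 to 5556 in controls and 5122 to 5766 in cKO. For complex III it was 2161 to 2551 and 2629 to 3151. The shares are given without a test, since a rise in one lowers the others.

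**Figure D2:**
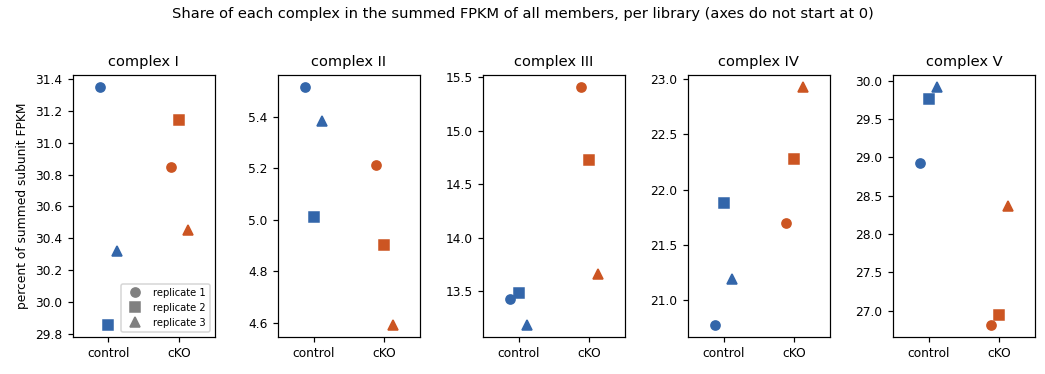
Percent of the summed FPKM of all 85 subunit genes that each complex held, per library (circles, squares and triangles are replicates 1, 2 and 3; the axes do not start at 0). The cKO libraries lie above the controls for complex III, at 13.7 to 15.4% against 13.2 to 13.5%, and below them for complex V. The summed FPKM of complex V itself overlapped between the groups.

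Complex I is the largest of the complexes, with 7 nuclear-encoded core subunits that hold its flavin and iron-sulphur centres. The other 32 members were counted as accessory subunits, the copies Ndufb4b, Ndufb4c and Ndufs6b among them. None of the 39 passed the test, and the median log2 fold change was 0.14 (0.08 for core and 0.17 for accessory subunits). Ndufb9, an accessory subunit of the membrane arm with the highest level in the complex over the 6 libraries (290.1 FPKM on average; in cKO alone Ndufa1 was higher, 297.2 against 284.9 FPKM), had a log2 fold change of -0.09 (SE 0.13). Ndufb10, another membrane arm subunit, had 154.3, 153.8 and 118.9 FPKM in controls and 194.6, 207.3 and 251.0 FPKM in cKO. Every cKO library was above every control, but the log2 fold change of 0.57 (SE 0.152) did not pass (edgeR adjusted p = 0.0749). Ndufs1, the largest core subunit, had 99.7, 96.6 and 94.3 FPKM in controls and 115.2, 126.5 and 120.4 FPKM in cKO. Its groups did not overlap either, with a log2 fold change of 0.28 (SE 0.0812, edgeR adjusted p = 0.0966). In all, 10 members of the complex had every cKO library above every control and 3 (Ndufc2, Ndufs3 and Ndufs6) had every one below. Over all genes tested, 16.7% lay above in this way and 20.7% below.

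Once cKO replicate 3 was left out, 8 of the 39 rose and 0 fell, where 13.7% of all genes rose and 14.9% fell. Ndufs1 and Ndufb10 were among the 8, at log2 fold changes of 0.27 and 0.45 (edgeR adjusted p = 0.0496 and 0.0187). The other 6, which were named after their values were seen, were Ndufv1 (0.50), Ndufa1 (0.69), Ndufb8 (0.52), Ndufb2 (0.42), Ndufa10 (0.36) and Ndufa9 (0.30). Ndufv1, the core subunit that binds NADH and flavin, had 116.0, 118.4 and 116.4 FPKM in controls and 155.1, 186.9 and 131.3 FPKM in cKO. All cKO libraries lay above the controls, and cKO replicate 3 was the nearest to them. Ndufb8 had 120.7, 115.7 and 101.5 FPKM in controls and 159.4, 174.6 and 98.5 FPKM in cKO, and Ndufb2 likewise was high in cKO replicates 1 and 2 (97.7 and 104.2 FPKM) and low in replicate 3 (53.3 FPKM). For both genes cKO replicate 3 fell under all controls, and with 6 libraries neither passed (edgeR adjusted p = 0.449 and 0.758). The X-linked gene Ndufa1 had 224.7, 204.0 and 169.9 FPKM in controls and 299.7, 363.2 and 228.8 FPKM in cKO, and its CPM overlapped between the groups.

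Complex II, succinate dehydrogenase, is the one complex with no mitochondrial-DNA subunit, and none of its 4 genes passed the test. Their log2 fold changes ran from -0.35 to 0.41. The flavoprotein gene Sdha had 199.0, 190.3 and 190.7 FPKM in controls and 168.4, 170.8 and 156.1 FPKM in cKO, and the iron-sulphur gene Sdhb had 318.3, 263.1 and 247.9 FPKM in controls and 387.1, 417.7 and 325.1 FPKM in cKO. All cKO libraries were below all controls for Sdha, whereas for Sdhb cKO replicates 1 and 2 were above the controls and replicate 3 was level with the highest of them (the groups overlapped in CPM). The log2 fold changes were -0.27 for Sdha (SE 0.0821, edgeR adjusted p = 0.107) and 0.41 for Sdhb (SE 0.14, edgeR adjusted p = 0.142). Sdhb was called without cKO replicate 3 (0.50, edgeR adjusted p = 0.00571) and Sdha was not (-0.23, edgeR adjusted p = 0.0902). Of the membrane anchors, Sdhd had a log2 fold change of -0.35 (SE 0.121, edgeR adjusted p = 0.143) with all cKO libraries below the controls, and Sdhc one of 0.00 (SE 0.105). Sdhc and Sdhd were named after their values were seen.

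In complex III, 1 of 9 members rose and 0 fell, where 3.52% of all genes tested rose and 3.59% fell. The median log2 fold change was 0.22, and 8 of 9 members were above 0, beside 6219 of all 13047 genes. Cyc1 (Entrez Gene 66445) encodes cytochrome c1, the haem subunit that hands electrons to cytochrome c. It had 229.7, 220.1 and 189.4 FPKM in controls and 305.4, 317.7 and 333.9 FPKM in cKO, or 213.1 ± 21.1 and 319.0 ± 14.3 FPKM (SD, n = 3 each). Every cKO library was above every control, and cKO replicate 3 was the highest. This was a log2 fold change of 0.54 (SE 0.0965, 95% interval 0.31 to 0.77), a 1.46-fold rise (edgeR adjusted p = 0.0243). Without cKO replicate 3 it was 0.51 (edgeR adjusted p = 0.00288), and without control replicate 3 the adjusted p was 0.115. Of the 6 fits that each left out 1 library, 1 called Cyc1, the one without cKO replicate 3.

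Uqcrq, a small accessory subunit, had 79.2, 72.0 and 74.1 FPKM in controls and 96.8, 117.7 and 134.4 FPKM in cKO. Its groups did not overlap, and its log2 fold change of 0.59 (SE 0.137) narrowly missed the threshold (edgeR adjusted p = 0.0523). Uqcrc1, a core protein of the matrix side, had the highest mean of the complex over the 6 libraries, though Uqcrb was higher in controls and Uqcr11 in cKO. It had 507.0, 436.4 and 426.4 FPKM in controls and 597.0, 570.1 and 460.8 FPKM in cKO. Here cKO replicate 3 lay between the controls (log2 fold change 0.21, SE 0.132, edgeR adjusted p = 0.408). With cKO replicate 3 left out, Uqcrq (0.47), Uqcrc1 (0.31), Cyc1 and Uqcr11 (0.61, named after its values were seen) rose, 4 of 9. In that fit 13.7% of all genes were called higher. Uqcrb, which helps to bind ubiquinone, was the one member of the complex with a value below 0 (-0.14, SE 0.0933; also named after its values were seen).

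In complex IV, 2 of the 15 tested members rose and 0 fell, where 3.52% of all genes tested rose and 3.59% fell. The median log2 fold change was 0.09. Cox6a1 (Entrez Gene 12861) encodes the widely expressed form of subunit 6a, whose other form belongs to heart and skeletal muscle. It had 492.2, 575.9 and 455.9 FPKM in controls and 718.2, 871.4 and 1022 FPKM in cKO, or 508.0 ± 61.5 and 870.4 ± 151.8 FPKM (SD, n = 3 each). The groups did not overlap, and in every cKO library it had the highest FPKM of the complex. The log2 fold change was 0.74 (SE 0.145, 95% interval 0.39 to 1.08), a 1.67-fold rise (edgeR adjusted p = 0.0339). It was 0.60 without cKO replicate 3 (edgeR adjusted p = 0.00174), and the adjusted p reached 0.163 without control replicate 3. Of the 6 fits that left out 1 library, 2 called Cox6a1, those without cKO replicate 1 and without cKO replicate 3.

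Cox6b2 (Entrez Gene 333182) encodes a form of subunit 6b best known from testis, beside the common form Cox6b1. It had 26.9, 33.2 and 29.1 FPKM in controls and 52.7, 75.3 and 60.9 FPKM in cKO, or 29.7 ± 3.19 and 63.0 ± 11.4 FPKM (SD, n = 3 each). All cKO libraries were above all controls, and replicate 2 was the highest in both groups. The log2 fold change was 1.04 (SE 0.237, 95% interval 0.48 to 1.60), a 2.06-fold rise (edgeR adjusted p = 0.0490). It was 1.06 without cKO replicate 3 (edgeR adjusted p = 0.0025). The call was lost in the other 5 fits that left out 1 library, with an adjusted p of up to 0.201 without control replicate 3, and with no filter on low counts (0.0634).

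**Figure D3:**
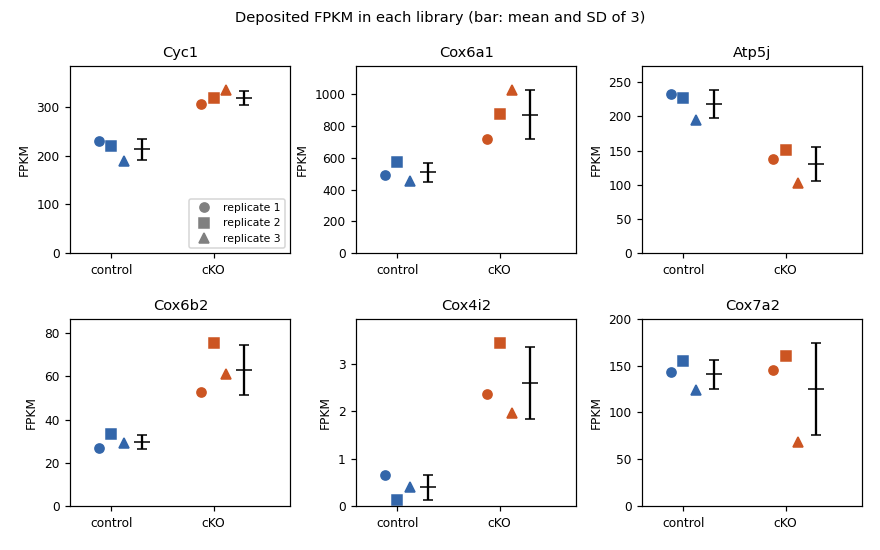
Deposited FPKM of 6 subunit genes in every library (circles, squares and triangles are replicates 1, 2 and 3; the bar is the mean and SD of 3 libraries), with axes starting at 0. Cyc1, Cox6a1, Cox6b2 and Cox4i2 are higher and Atp5j is lower in every cKO library than in any control, and Cox7a2 is low in cKO replicate 3 alone, at 68.7 FPKM.

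Tissue-restricted forms of complex IV subunits were compared with their common forms as a share of the FPKM of the pair, for the 3 pairs with enough counts. Cox6b2 made up 4.82, 5.70 and 5.79% of its pair with Cox6b1 in controls and 8.94, 11.2 and 10.2% in cKO (5.44% ± 0.536 and 10.1% ± 1.12, SD, n = 3 each). Cox6b1 itself had a log2 fold change of 0.06 (SE 0.0965) and a 95% interval of -0.16 to 0.29. The shares of Cox6b2 did not overlap; the two-sided exact permutation test gave p = 0.1, the smallest that 3 against 3 libraries allow (adjusted over the 3 pairs 0.15).

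Cox4i2, the form of subunit 4 known from lung and from cells at low oxygen, was scarce. It had 5, 1 and 3 counts in controls and 17, 24 and 14 counts in cKO, and its log2 fold change of 2.62 (SE 1.10, 95% interval -0.01 to 5.24) did not pass (edgeR adjusted p = 0.218). It passed without cKO replicate 3, at 2.78 (edgeR adjusted p = 0.0489). As a share of its pair with Cox4i1 it was 0.172, 0.0314 and 0.112% in controls and 0.649, 0.818 and 0.596% in cKO (0.105% ± 0.0706 and 0.688% ± 0.116, SD, n = 3 each). These did not overlap, with an exact permutation p of 0.1 (adjusted 0.15), while Cox4i1 had a log2 fold change of -0.10 (SE 0.118). Even in cKO the Cox4i2 form stayed under 1% of the pair.

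Cox7a1, the heart and muscle form of subunit 7a, had 3.93, 1.70 and 2.12% of its pair with Cox7a2 in controls and 2.23, 3.91 and 5.20% in cKO. The groups overlapped (exact permutation p = 0.3, adjusted 0.3), and the log2 fold change of Cox7a1 was 0.23 (SE 0.891, edgeR adjusted p = 0.914), with an interval of -1.89 to 2.35 that leaves a change of several-fold undetectable at this depth. Of the 8 muscle markers tested, 5 rose in cKO, where 3.52% of all genes tested did. The part of the muscle markers in this share was not tested. Cox7a2 had 143.6, 154.8 and 124.3 FPKM in controls and 144.9, 160.9 and 68.7 FPKM in cKO. It was low in cKO replicate 3 alone, the library with the highest share of Cox7a1. Its log2 fold change was -0.21 (SE 0.31) with that library and 0.07 without it. The common forms Cox8a, Cox7b and Ndufa4 had log2 fold changes of 0.09 (SE 0.116), 0.06 (SE 0.121) and 0.05 (SE 0.156).

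**Figure D4:**
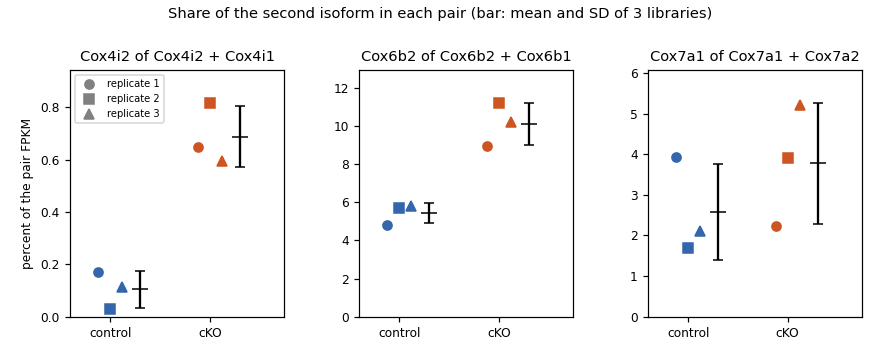
Share of the tissue-restricted form in the FPKM of each of 3 complex IV isoform pairs, per library (circles, squares and triangles are replicates 1, 2 and 3; the bar is the mean and SD of 3 libraries). The Cox4i2 and Cox6b2 shares are higher in every cKO library than in any control, and the Cox7a1 shares overlap.

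In complex V, 0 of 17 members rose and 1 fell, where 3.52% of all genes tested rose and 3.59% fell. The median log2 fold change was 0.04. Atp5j (Entrez Gene 11957) encodes coupling factor F6, part of the peripheral stalk that holds the catalytic head still against the rotor. It had 232.4, 226.6 and 195.0 FPKM in controls and 138.4, 151.5 and 102.9 FPKM in cKO, or 218.0 ± 20.1 and 130.9 ± 25.2 FPKM (SD, n = 3 each). All cKO libraries were below all controls, and cKO replicate 3 was the lowest. The log2 fold change was -0.77 (SE 0.162, 95% interval -1.16 to -0.39), or 0.585 times the control level (edgeR adjusted p = 0.0399). Without cKO replicate 3 it was -0.63 (edgeR adjusted p = 0.000761). The call was lost in the other 5 fits that left out 1 library, with an adjusted p of up to 0.149 without control replicate 1. The other 3 stalk genes, Atp5o, Atp5pb and Atp5h, had values of 0.13, 0.12 and 0.11 (named after their values were seen).

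The head, the c ring and the membrane subunits of complex V had 0 calls among 5, 3 and 5 genes. Atp5b had 1188, 1265 and 1120 FPKM in controls and 1008, 1150 and 1187 FPKM in cKO, which overlapped (log2 fold change -0.14, SE 0.0857, edgeR adjusted p = 0.408). The 3 genes of the c subunit, the rotor ring, encode the same mature protein and may share reads, so their values are uncertain. Atp5g2 had 103.5, 110.4 and 112.2 FPKM in controls and 76.8, 94.6 and 59.4 FPKM in cKO, all below the controls (-0.54, SE 0.199, edgeR adjusted p = 0.166). Atp5g1 and Atp5g3 overlapped between groups, at 0.15 (SE 0.0994) and -0.12 (SE 0.0972).

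Across the members, cKO replicate 3 had the largest median absolute deviation of the 6 libraries. Over the 79 members with at least 100 counts in every library, the median absolute log2 distance from the mean of the other 2 libraries of its group was 0.18, where the other libraries had 0.10 to 0.17. Its deviations ran from -1.17 for Cox7a2 to 0.49 for Atp5d (named after its values were seen), and for 4 of the 79 members they exceeded 1.5-fold. Without it, 78 of 84 members had intervals inside 2-fold and 62 inside 1.5-fold. With sign kept, the median deviation was largest for control replicate 3 (-0.17, beside -0.09 for cKO replicate 3). Without control replicate 3 the median log2 fold change of the members was 0.07, beside -0.02 over all genes, and 50 of 84 were above 0.

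**Figure D5:**
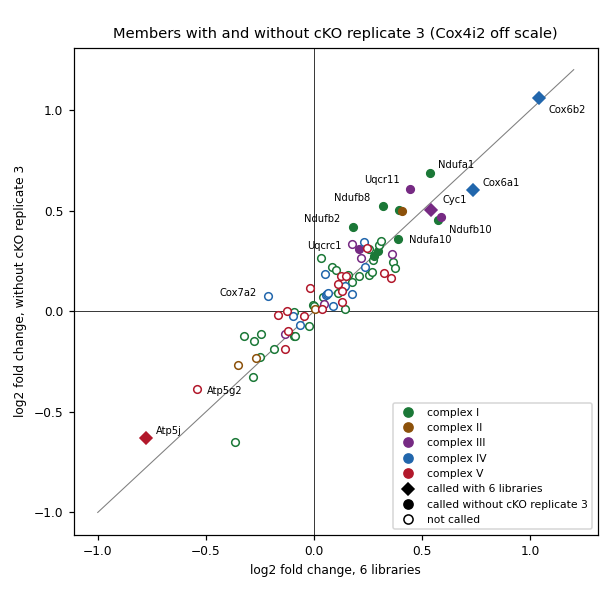
Log2 fold change of each subunit gene with 6 libraries (horizontal) and without cKO replicate 3 (vertical), coloured by complex, with the line of equal values; Cox4i2, at 2.62 and 2.78, lies off the scale. Diamonds were called with 6 libraries and filled circles only without cKO replicate 3; the 13 genes of the second kind all lie above 0 on both axes, Cox4i2 included.

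The promoters of 3 of the 4 called members, Cyc1 being the other, are shown because ASH2L acts at promoters and because the nuclear respiratory factors NRF1 and GABP (an ETS factor), and YY1, are known to bind promoters of this gene class. The sequences are windows of 300 bases from RefSeq (build GRCm38.p6, 250 bases before to 50 after a transcript start), printed 5′ to 3′ on the gene's strand, and capitals mark matches on either strand to GCGCA, any base and GCGC in a row (NRF1-type), CCGGAAG (ETS) or AAGATGGC (YY1-type). They are Cox6a1 at chr5:115348909-115349208, Cox6b2 at chr7:4753045-4753344 and 1 of the 2 starts of Atp5j at chr16:84834927-84835226, all on the minus strand.
Cox6a1: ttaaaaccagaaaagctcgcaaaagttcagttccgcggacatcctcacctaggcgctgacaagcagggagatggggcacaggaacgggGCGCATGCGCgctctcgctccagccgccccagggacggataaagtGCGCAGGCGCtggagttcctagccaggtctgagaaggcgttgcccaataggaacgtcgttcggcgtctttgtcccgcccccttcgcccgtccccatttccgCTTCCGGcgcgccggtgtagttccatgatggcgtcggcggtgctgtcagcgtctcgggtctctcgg
Cox6b2: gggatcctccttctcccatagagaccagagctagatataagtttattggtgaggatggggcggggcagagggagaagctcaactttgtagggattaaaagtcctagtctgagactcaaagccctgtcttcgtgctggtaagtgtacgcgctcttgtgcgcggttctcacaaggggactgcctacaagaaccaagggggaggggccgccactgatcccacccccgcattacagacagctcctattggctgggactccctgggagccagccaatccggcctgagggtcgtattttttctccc
Atp5j: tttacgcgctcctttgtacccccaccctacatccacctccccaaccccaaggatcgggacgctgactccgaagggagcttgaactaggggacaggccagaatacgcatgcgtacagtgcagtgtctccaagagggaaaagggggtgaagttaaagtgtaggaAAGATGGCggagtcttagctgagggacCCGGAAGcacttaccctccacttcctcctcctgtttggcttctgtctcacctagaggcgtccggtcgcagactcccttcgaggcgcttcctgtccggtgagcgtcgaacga
Cox6a1, which rose, held 2 NRF1-type matches and 1 ETS match, and Atp5j, which fell, held 1 ETS and 1 YY1-type match. Cox6b2 and the other start of Atp5j held 0 matches. The ETS and YY1-type letters can overlap in AAG, and no matches shown here overlap. Of the 85 members, 68 were matched to 73 windows, of which 24.7% held the NRF1-type letters, 23.3% the ETS letters and 13.7% the YY1-type letters. Over all 32851 windows these shares were 4.6%, 8.86% and 2.75%. At least 1 of the 3 motifs was in 53.4% of member windows and 14.7% of all windows. A match is a run of letters and not a measured binding site.

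Genes that surround the subunits in mitochondrial biology also showed few calls. Over all genes tested, 3.52% were called higher and 3.59% lower. Without cKO replicate 3 these shares were 13.7% and 14.9%. Of 20 electron carrier, ubiquinone and other chain genes outside the name rule, 0 rose and 0 fell with 6 libraries (median 0.12; 7 rose and 2 fell without cKO replicate 3). Coq8a, a kinase-like protein of ubiquinone synthesis, had 199, 176 and 107 counts in controls and 460, 377 and 325 counts in cKO, above the controls in every library (log2 fold change 1.33, SE 0.314, edgeR adjusted p = 0.0539). Coq9, which acts in the same synthesis, had a log2 fold change of 0.52 (SE 0.139, edgeR adjusted p = 0.0767). Of 53 assembly factors tested, 1 rose and 0 fell (median 0.10; 8 and 5 without cKO replicate 3). The riser was Ecsit, a complex I assembly factor, with 693, 586 and 696 counts in controls and 1259, 1147 and 1190 counts in cKO. Its groups were far apart (log2 fold change 0.92, SE 0.133, edgeR adjusted p = 0.0132), and 2 of the 6 fits that left out 1 library called it. Coa3, a complex IV assembly factor, had a log2 fold change of -0.86 (SE 0.203, edgeR adjusted p = 0.0554), with all cKO libraries below the controls.

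Of 18 pyruvate dehydrogenase and citric acid cycle genes, 0 rose and 1 fell (median 0.08). Without cKO replicate 3, 1 rose and 2 fell. Idh2, the mitochondrial NADP-dependent isocitrate dehydrogenase, had 7005, 7019 and 6391 counts in controls and 3822, 4481 and 3234 counts in cKO. The groups did not overlap, at a log2 fold change of -0.76 (SE 0.135, edgeR adjusted p = 0.0244; called in 2 of the 6 fits that left out 1 library). Mdh2, the mitochondrial malate dehydrogenase, had a log2 fold change of 0.53 (SE 0.123, edgeR adjusted p = 0.0522) with all cKO libraries above the controls.

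Of 18 regulators of mitochondrial biogenesis, 0 passed the test in either direction (median 0.02; 1 rose and 2 fell without cKO replicate 3). Nrf1, the factor whose motif was counted above, had 1367, 1413 and 1454 counts in controls and 908, 682 and 1054 counts in cKO. All cKO libraries were below the controls, with a log2 fold change of -0.62 (SE 0.168, edgeR adjusted p = 0.0787), and it was called without cKO replicate 3 (-0.77, edgeR adjusted p = 0.00103). Tfb2m, a mitochondrial transcription factor, had a log2 fold change of 0.73 (SE 0.214, edgeR adjusted p = 0.097). Of 23 import, channel and membrane organisation genes, 0 rose and 0 fell (median 0.01; 4 and 1 without cKO replicate 3). The chaperonin gene Hspd1 had -0.40 (SE 0.0957, edgeR adjusted p = 0.0553) and the phosphate carrier gene Slc25a3 0.65 (SE 0.206, edgeR adjusted p = 0.118).

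Hypoxia-inducible genes were read beside Cox4i2, which did not pass with 6 libraries, and they were not uniform. Any link between them and Cox4i2 was not tested. Of 17 tested, 4 rose and 1 fell, with a median of 0.07, where 3.52% of all genes were called higher and 3.59% lower. Without cKO replicate 3 the counts were 5 and 3 of 18, where 13.7% and 14.9% of all genes were called. Ero1a, an oxidase of the endoplasmic reticulum, had 577, 611 and 629 counts in controls and 1283, 1042 and 1275 counts in cKO (log2 fold change 1.05, SE 0.134, edgeR adjusted p = 0.0094). Adm, the adrenomedullin gene, had 301, 673 and 649 counts in controls and 2662, 2220 and 1929 counts in cKO (2.13, SE 0.315, edgeR adjusted p = 0.0143). For both genes the groups did not overlap, and each was called in 3 of the 6 fits that left out 1 library. The remaining calls, named after their values were seen, were rises of Ankrd37 (1.22) and Pfkfb3 (0.79) and a fall of Ldha (-0.50), which encodes a lactate dehydrogenase subunit of glycolysis.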

How the data were processed

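RNA-seq libraries of 3 control and 3 cKO samples were compared. The members and gene lists were chosen with earlier results of these data known. The authors deposited raw read counts per gene and FPKM values; per the submitters' processing notes, which give no versions or roles, the tools were HISAT2, HTSeq, Cufflinks and DESeq and the build GRCm39. Whether counting used strand is not given in the sources, so overlapping antisense genes may share reads. Deposited FPKM equalled the counts after rescaling each gene and each library by a constant (largest relative deviation 2.54e-07), so FPKM is no independent measurement. Gene names came from the tables. Within groups, replicates differed beyond counting noise (chi-square over its degrees of freedom 9.90 to 71.7), and none was merged.

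Counts were fitted with edgeR 4.0.16 in R 4.3.3: filterByExpr (13047 genes), scaling by TMM, the quasi-likelihood F-test in its robust form with group as the only term, and Benjamini-Hochberg adjustment over all genes tested; a gene was called at an adjusted p under 0.05. The SE of a log2 fold change was taken from the F statistic. TMM factors were also applied to CPM. Isoform shares with at least 10 counts of the second form in some library were tested by exact permutation. Alternatives were DESeq2 1.42.0, limma 3.58.1 (voom and log2 FPKM), other scalings and filters, a replicate block and each library left out. Named by rule were Ash2l, called members, in each complex the most abundant member and the 2 with the smallest p, isoform pairs, the c subunit genes, and 2 genes of each surrounding list by smallest p; any other gene was named after its values were seen. Same-numbered libraries did not deviate together (correlations of -0.022, 0.025 and -0.0015).

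On simulated counts for 6 libraries (12359 genes), 11% of genes changed 2-fold and 39% of those changed 4-fold were called, and 3.85% of calls were false. For the fit leaving out cKO replicate 3 (12875 genes) these were 57%, 80% and 9.27%. The changed genes were a random set, fewer than the genes called in the data, and those lost to the filter counted as missed. These percentages therefore need not hold for the members, most of which were abundant.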

Additional observations from a re-analysis of the deposited data

How the results depend on the processing

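The median log2 fold change of the members stayed between 0.065 and 0.173 under all alternatives run. The count of members called was less stable. From 3 higher and 1 lower, DESeq2 gave 9 and 2 (7.89% and 7.82% of all genes), voom with quality weights 18 and 2 (12.3% and 13.5% of all genes), and limma on log2(FPKM + 1) 6 higher (5.33% of all genes). Leaving out 1 library gave 0 to 16 higher and 0 to 1 lower (0.456 to 13.7% and 0.434 to 14.9% of all genes). With other scalings and without cKO replicate 3, chosen after seeing the data, the counts were 16 higher (RLE, 14.1% of all genes) and 17 higher (library totals, 15.2%). With the replicate number as a block, 0 members were called higher and 0 lower, beside 12 and 11 of all genes; 16 members had an unadjusted p under 0.05. The numbers did not pair the libraries. Signs turned for genes close to 0, where leaving out 1 library gave -0.4257 to 0.0741 for Cox7a2, -0.1192 to 0.7009 for Cox7a1, -0.0337 to 0.1019 for Cox7b and -0.0884 to 0.1837 for Ndufa4. Quality weights gave 0.0703 for Cox7a2 and 0.014 for Ndufb9. Without cKO replicate 3, RLE gave 0.0864 for Cox7a2 and 0.0082 for Ndufb9, and library totals gave 0.1185 for Cox7a2, 0.0419 for Ndufb9 and 0.023 for Cox4i1. The causes were not tested. Over the single genes followed, 484 values kept direction and side of the threshold, 66 newly passed, 25 no longer passed and 13 changed sign. Limma-voom moved the share of rises among all calls from 49.5% to 40.7% and the median of all genes from -0.04 to -0.13. At this depth the 6 genes under 20 FPKM have wide intervals.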

Other observations

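Other genes under the KEGG oxidative phosphorylation pathway, mostly proton pumps of acidic vesicles and of the cell surface, were not members. Of 33 tested, 1 rose and 2 fell, where 3.52% and 3.59% of all genes did. Without cKO replicate 3 the counts were 6 and 9, where 13.7% and 14.9% of all genes were called. Atp6v0e2, a membrane subunit of the vacuolar proton pump, had 230, 199 and 142 counts in controls and 594, 674 and 364 counts in cKO, above the controls in every library (log2 fold change 1.58, SE 0.318, edgeR adjusted p = 0.0361). Atp6v1g1, a stalk subunit of the same pump, had 2495, 2202 and 2119 counts in controls and 1451, 1337 and 961 counts in cKO (-0.80, SE 0.179, edgeR adjusted p = 0.0481). Ppa2, the mitochondrial pyrophosphatase, had 1046, 1031 and 1109 counts in controls and 442, 340 and 161 counts in cKO (-1.69, SE 0.356, edgeR adjusted p = 0.0405). Each of these 3 calls was lost in most fits that left out 1 library: 1 of 6 kept Atp6v0e2 and Atp6v1g1, and 2 of 6 kept Ppa2. The pump subunits typical of intercalated cells were low in cKO without passing the test. Atp6v1b1 had 121, 167 and 124 counts in controls and 13, 0 and 0 counts in cKO (edgeR adjusted p = 0.123), and Atp6v0d2 had 274, 379 and 202 counts against 23, 45 and 0 (edgeR adjusted p = 0.142). Both passed without cKO replicate 3 (edgeR adjusted p = 0.00116 and 5.74e-05). These genes were named after their values were seen.

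Many subunit genes share a start region with a gene on the other strand. In GENCODE vM21, 29 of 79 members found had a protein-coding start on the opposite strand within 1000 bases. The share of all genes with such a neighbour was not counted. Of these neighbours 27 were tested, of which 0 rose or fell. Over all genes tested 3.52% rose and 3.59% fell, so 27 genes would hold few calls at that background. The neighbour of Atp5j is Gabpa, which encodes the DNA-binding subunit of GABP. Atp5j fell by 0.77 on the log2 scale, while Gabpa had 906, 959 and 865 counts in controls and 1045, 1143 and 1388 counts in cKO, above the controls in every library (0.45, SE 0.135, edgeR adjusted p = 0.102). The difference between the neighbours was not tested.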
